A study of Homo sapiens with 4 samples.

Results

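Open chromatin was described at 10 loci whose genes are known glucocorticoid targets in metabolism and the stress response: PDK4, ANGPTL4, IGFBP1, MT2A, CRISPLD2, DDIT4, BCL6, TNFAIP3, GADD45A and CEBPB. The members are the called regions that lie wholly inside a window around each gene on hg19, the gene body plus about 50 kb on each side. Merging the regions of all libraries that shared at least 1 bp gave 17 regions in these windows, of 9007 in the whole series. Chromatin was profiled by ATAC-seq, in which a transposase inserts sequencing adapters into accessible DNA, in the Ishikawa line, an established cell line from a human endometrial adenocarcinoma. The cells had been kept in hormone-depleted medium, free of phenol red and with charcoal/dextran treated serum. They then received DMSO as vehicle, dexamethasone at 100 nM, 17-beta-estradiol at 10 nM, or both hormones at these doses, for 1 hour. Each treatment had 1 library, so no difference below has a replicate check and no test between treatments was made. All groups share the cell line and the depleted medium.

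Dexamethasone is a synthetic ligand of the glucocorticoid receptor, a transcription factor that enters the nucleus on binding ligand. It binds DNA mostly at distal enhancers, and often at sites that are already accessible. Its targets include genes that shift cells from glucose to fat as fuel and genes that limit growth, damage and inflammation. Estradiol activates the estrogen receptor, a related factor with its own DNA element. An accessible region shows where factors can bind and does not show which factor is bound or whether the gene is transcribed.

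The libraries held between 8240912 and 20185339 tags after duplicate removal, with fragment lengths modelled at 51 to 104 bp. Vehicle had 10694743 tags and 1923 regions, dexamethasone 14980230 tags and 8428 regions, estradiol 20185339 tags and 4772 regions, and the combination 8240912 tags and 146 regions. The combination library stood apart: it was the shallowest, and its fragment length of 51 bp was close to the tag length of 50 bp. Numbers of regions can move with depth and fragment length as well as with treatment. The part of each in the counts below was not tested. Positions of the endometrial and epithelial marker genes on hg19 were not used here, so the cell line was not checked against its markers.

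Promoter sequences are shown for 4 of the 6 loci with a region inside the window cut back by 50 kb. The cut-back window is about the gene body. All promoters with a motif match are among those shown. CRISPLD2 also had such a region and is not shown, and its promoter held no motif searched. The sequences were taken from RefSeq by gene symbol, on GRCh38.p14. Of the 10 genes, 8 were matched, with 10 promoters, as BCL6 and CEBPB each had more than one. IGFBP1 and GADD45A were not matched, so the promoter counts below do not cover them. The files' positions are on hg19, so these sequences were not placed under the regions. Each run is the 250 bases before the start site, 5′ to 3′ on the gene's strand, with motif matches in capitals. For PDK4 the capitals mark a hexamer that is one arm of the glucocorticoid response element, and for MT2A and BCL6 they mark an AP-1 site. DDIT4 is shown as a locus with a region inside its cut-back window in 3 libraries, whose promoter held no motif searched.
PDK4 (chr7:95596517-95596766, - strand): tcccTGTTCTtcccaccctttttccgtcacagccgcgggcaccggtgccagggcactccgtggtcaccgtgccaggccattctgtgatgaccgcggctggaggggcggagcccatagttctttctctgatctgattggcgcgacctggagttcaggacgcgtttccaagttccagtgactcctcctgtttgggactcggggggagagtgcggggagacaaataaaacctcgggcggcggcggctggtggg
MT2A (chr16:56608334-56608583, + strand): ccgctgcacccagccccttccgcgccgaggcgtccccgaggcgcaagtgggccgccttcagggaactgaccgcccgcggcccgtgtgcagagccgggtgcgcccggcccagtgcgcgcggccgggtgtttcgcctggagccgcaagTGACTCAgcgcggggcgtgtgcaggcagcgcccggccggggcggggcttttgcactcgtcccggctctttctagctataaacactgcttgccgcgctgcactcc
BCL6 (chr3:187736502-187736751, - strand): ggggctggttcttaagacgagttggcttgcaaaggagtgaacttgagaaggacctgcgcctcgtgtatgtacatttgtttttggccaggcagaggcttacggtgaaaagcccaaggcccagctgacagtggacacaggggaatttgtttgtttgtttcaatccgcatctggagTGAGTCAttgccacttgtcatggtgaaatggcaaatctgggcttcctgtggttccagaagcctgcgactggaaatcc
DDIT4 (chr10:72273674-72273923, + strand): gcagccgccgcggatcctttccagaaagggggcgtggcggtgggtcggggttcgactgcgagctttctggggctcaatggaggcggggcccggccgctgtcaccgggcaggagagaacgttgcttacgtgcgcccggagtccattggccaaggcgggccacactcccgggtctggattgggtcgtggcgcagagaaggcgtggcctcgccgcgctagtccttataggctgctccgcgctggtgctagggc

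Both strands were searched for 5 motifs, and overlapping matches were allowed. The hexamer AGAACA was found in 1 of the 10 promoters, that of PDK4, from base -246 to base -241 counted from the start site, and in 12.4% of all 35116 RefSeq promoters over the same length. The AP-1 site TGANTCA was found in 2, in MT2A from -104 to -98 and in 1 of the 2 BCL6 promoters from -77 to -71, and in 6.57% of all promoters. No match was found in the 10 promoters to the full glucocorticoid response element with at most 2 mismatches (1.18% of all promoters), the estrogen response element with at most 1 mismatch (0.678%) or the cyclic AMP response element TGACGTCA (1.65%). These are descriptions of letters in this stretch and say nothing about binding.

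Dexamethasone had the most regions at these loci. The windows, 1.22 Mb in all, held 5 vehicle, 16 dexamethasone, 10 estradiol and 0 combination regions. Of the 17 merged regions, 5 were called in vehicle, 16 in dexamethasone and 10 in estradiol, where 21.2%, 93.4% and 52.3% of all merged regions were. At least 1 region was called at 5 of the 10 loci with vehicle, at 8 with dexamethasone and at 7 with estradiol. IGFBP1 and TNFAIP3 had none in any library. No locus had more regions with vehicle or estradiol than with dexamethasone. MT2A had the most, with 4 regions after dexamethasone, followed by PDK4 with 3. Among the strongest 1923 regions of each list by p-value, the length of the vehicle list, the windows held 5 vehicle, 4 dexamethasone and 4 estradiol regions. With the dexamethasone list at the 4772 regions of the estradiol list, a length chosen after seeing the data, they held 11 dexamethasone, 10 estradiol and 5 vehicle regions.

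**Figure D1:**
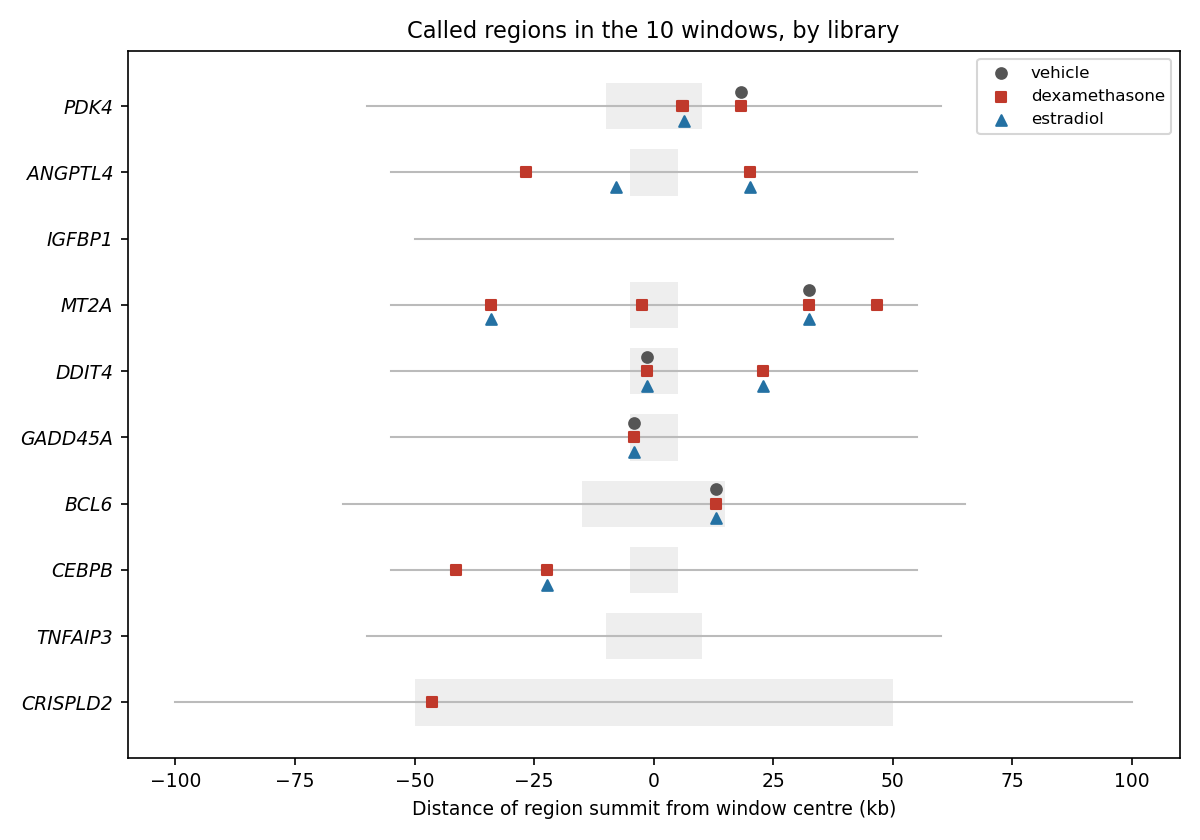
Position of each called region in the 10 windows, as the distance of its summit from the window centre in kb, with vehicle as circles, dexamethasone as squares and estradiol as triangles. Grey lines are the windows and grey bars the windows cut back by 50 kb on each side; the 2 dexamethasone squares of PDK4 inside the bar overlie each other, and IGFBP1 and TNFAIP3 have no symbol.

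The 16 dexamethasone regions were set against the other lists by overlap of at least 1 bp. Of these, 11 had no vehicle overlap (68.8%, 95% exact Clopper-Pearson interval 41.3 to 89.0), where 78.0% of the whole dexamethasone list had none. Of the 10 estradiol regions, 6 had no vehicle overlap (interval 26.2% to 87.8%), where 64.8% of the whole estradiol list had none. An estradiol region was met by 9 of the 16 from the dexamethasone list (56.2%, 29.9 to 80.2), against 49.7% of the list. Conversely, 9 of the 10 from the estradiol list met a dexamethasone region (90.0%, 55.5 to 99.7), against 88.7% of the list. All 5 vehicle regions overlapped a dexamethasone region, against 96.9% of the vehicle list, and 4 overlapped an estradiol region, against 87.2%. Each of these shares had the value of its whole list inside its interval. These intervals hold counting error alone, since regions of one library are no replicates of a treatment.

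By membership, 6 of the 17 merged regions were called with dexamethasone alone (35.3%, against 44.8% of all merged regions). A further 5 were called with both single hormones and not with vehicle (29.4%, against 27.9%), and 4 with vehicle and both single hormones (23.5%, against 17.4%). One PDK4 region was shared by vehicle and dexamethasone only (5.88%, against 2.21%), and one ANGPTL4 region was called with estradiol alone (5.88%, against 5.6%). None was called in the combination library, in which 1.5% of all merged regions were called. With 17 regions, no class could be called more or less common at these loci than in the series. A missing call means only that a region did not pass the threshold of that library.

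**Figure D2:**
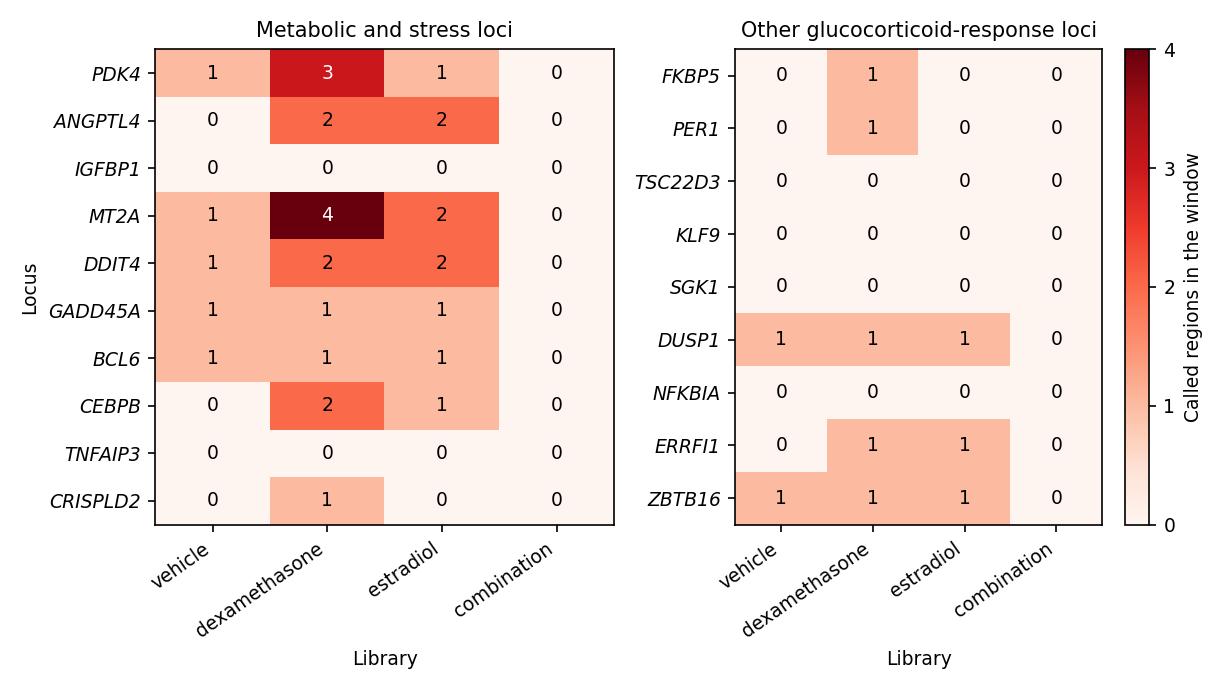
Number of called regions in each window, by library, for the 10 metabolic and stress loci (left) and 9 other glucocorticoid-response loci (right), with the colour scale from 0 to 4 regions. MT2A and PDK4 have the highest dexamethasone counts, 4 and 3, and the combination column is 0 at every locus.

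The metabolic genes PDK4, ANGPTL4 and IGFBP1 are described first. Their 3 windows held 6 merged regions, with 5 regions called after dexamethasone, 3 after estradiol and 1 with vehicle. Over the series, 93.4%, 52.3% and 21.2% of merged regions were called in these libraries. PDK4 encodes pyruvate dehydrogenase kinase 4, which restrains the entry of pyruvate into the citric acid cycle and so spares glucose. A pair of dexamethasone regions lay inside the cut-back window, 102 bases apart, toward the higher coordinates, which is the side of the gene's 5′ end since PDK4 is read from the minus strand. The first, chr7:95225902-95226078, had a pileup of 19 tags and an 8.44-fold enrichment over local background, and was called in no other library. The second, chr7:95226181-95226355, had 18 tags and stood at rank 7101 of 8428. With estradiol this second place was called as chr7:95226210-95226293, with 17 tags and an 8.89-fold enrichment. Neither was called with vehicle.

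The third PDK4 region lay 8.3 kb beyond the cut-back window on the same side. It was called with dexamethasone at chr7:95238195-95238361 with 18 tags (11.84-fold) and with vehicle at chr7:95238199-95238334 with 12 tags (8.38-fold), and its summits were 5 bp apart. It was not called with estradiol, the deepest library. The vehicle call was among the weak ones, at rank 1794 of 1923 by p-value, and the dexamethasone call stood at rank 3228 of 8428. The pileup counts extended tags over the summit and is not scaled to depth, and the fold is against each library's own background. Values of different libraries are therefore given side by side and not divided by each other.

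ANGPTL4 encodes a secreted inhibitor of lipoprotein lipase, which restrains the uptake of fat from the blood. No region lay inside its cut-back window in any library. The region nearest to it, chr19:8427004-8427094, was called with estradiol alone, 2.9 kb below the cut-back window, with 18 tags (10.67-fold). A dexamethasone region with no counterpart lay 21.8 kb below the cut-back window, at chr19:8408159-8408290, with 17 tags (10.57-fold). The strongest region lay 15.1 kb above the cut-back window at its dexamethasone summit. With dexamethasone it was chr19:8454913-8455208 with 32 tags (14.63-fold, rank 491 of 8428), and with estradiol chr19:8454915-8455207 with 20 tags (9.19-fold, rank 2548 of 4772). Vehicle had no region in the full ANGPTL4 window. Of the protein-coding neighbours within 50 kb, KANK3, RPS28 and NDUFA7 lie on the lower side and RAB11B and MARCHF2 on the higher side, so these regions cannot be assigned to ANGPTL4 by position alone.

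IGFBP1 encodes a secreted binding protein of insulin-like growth factors that is a classic product of decidualised endometrium. Its window held no region in any of the 4 libraries. The nearest called region, 37.9 kb past the window's upper edge, was found with dexamethasone at chr7:46017907-46018105 (20 tags, 10.47-fold) and with estradiol at chr7:46017899-46018079 (17 tags, 9.48-fold). The nearest vehicle region was 840.3 kb away. IGFBP3, another binding protein of the family, is the neighbour on that side.

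The stress loci MT2A, DDIT4 and GADD45A held 7 merged regions. All 7 were called with dexamethasone, 5 with estradiol and 3 with vehicle, where 93.4%, 52.3% and 21.2% of all merged regions were. MT2A encodes a metallothionein, a small cysteine-rich protein that binds zinc and copper and buffers metal and oxidative stress. A region inside its cut-back window, chr16:56642420-56642526, was called with dexamethasone alone, with 23 tags (9.9-fold). Its p-value placed it at rank 3645 of 8428, near the middle of the list.

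The other 3 regions lay in the flanks of the window, and their distances are counted from the edge of the cut-back window. On the lower side, 29.0 kb away, dexamethasone had chr16:56610985-56611098 with 14 tags (9.89-fold) and estradiol chr16:56611021-56611154 with 16 tags (9.87-fold). On the higher side, 27.5 kb away, one place was called in 3 libraries. There vehicle had chr16:56677477-56677580 with 16 tags (9.72-fold), dexamethasone chr16:56677431-56677567 with 23 tags (12.64-fold), and estradiol chr16:56677411-56677580 with 20 tags (10.37-fold). The last, chr16:56691574-56691717, 41.7 kb away, was called with dexamethasone alone with 21 tags (11.64-fold). The metallothionein genes form a cluster, with MT3 and MT4 on the lower side of MT2A and MT1E, MT1M, MT1A, MT1B and MT1F on the higher side. The window of MT2A therefore covers several metallothionein genes. These genes are close copies of each other, and how tags that map to several copies were treated is not given in the sources used here.

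DDIT4 (also REDD1) encodes an inhibitor of the growth kinase complex mTORC1 that is induced by hypoxia, DNA damage and glucocorticoids. A region inside its cut-back window was called in 3 libraries. Vehicle had chr10:74033492-74033649 with 15 tags (7.32-fold), dexamethasone chr10:74033528-74033696 with 24 tags (8.91-fold), and estradiol chr10:74033574-74033657 with 23 tags (9.43-fold). The vehicle call had a fold below the vehicle list's median of 9.53 and stood at rank 1859 of 1923. A second region, 17.8 kb above the cut-back window at its estradiol summit, was called with both single hormones. It had 14 tags with dexamethasone (chr10:74057810-74057986, 8.01-fold, rank 8034 of 8428) and 18 with estradiol (chr10:74057813-74057908, 10.05-fold, rank 2335 of 4772). It was thus among the weakest calls of one list and near the middle of the other, and the lists differ in length and depth.

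GADD45A encodes a small p53- and stress-inducible protein that acts in growth arrest and DNA repair. Its single region was the strongest at these loci by p-value in the vehicle, dexamethasone and estradiol lists. Vehicle had chr1:68150727-68151085 with 32 tags (11.7-fold, rank 72 of 1923), dexamethasone chr1:68150715-68151085 with 56 tags (14.99-fold, rank 20 of 8428), and estradiol chr1:68150710-68151049 with 36 tags (11.97-fold, rank 158 of 4772). It was also the longest at these loci in each of these lists, at 359, 371 and 340 bp, where the lists had medians of 150, 152 and 137 bp. The region lay inside the cut-back window and was called without hormone as well as with either hormone.

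The regulators BCL6, CEBPB and TNFAIP3 and the secreted protein CRISPLD2 held 4 merged regions, of which dexamethasone called 4, estradiol 2 and vehicle 1. Among all merged regions, these libraries called 93.4%, 52.3% and 21.2%. BCL6 encodes a transcriptional repressor best known from germinal-centre B cells. Its region lay inside the cut-back window, toward the higher coordinates, the 5′ side of this minus-strand gene. Vehicle had chr3:187467982-187468165 with 33 tags (11.27-fold, rank 81 of 1923), dexamethasone chr3:187467969-187468192 with 38 tags (10.5-fold, rank 815 of 8428), and estradiol chr3:187467927-187468186 with 35 tags (9.61-fold, rank 447 of 4772). The summits in vehicle and dexamethasone were 1 bp apart. This was the region with the most vehicle tags at these loci, and it was in the strongest 10% of all 3 lists.

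CEBPB encodes C/EBP beta, a leucine-zipper factor of fat, liver and decidual cell differentiation. No region lay inside its cut-back window. The protein-coding neighbours within 50 kb, PEDS1-UBE2V1, PEDS1 and LOC124904927, lie on the lower side of CEBPB. Both of its regions were on that side too, so they cannot be assigned to CEBPB by position alone. Their distances are counted from the edge of the cut-back window. The nearer, 17.2 kb away, was called with dexamethasone at chr20:48782648-48782838 with 22 tags (11.83-fold) and with estradiol at chr20:48782705-48782812 with 18 tags (9.16-fold), with summits 8 bp apart. The farther, chr20:48763592-48763703, 36.3 kb away, was called with dexamethasone alone with 19 tags (10.79-fold). Vehicle had none.

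CRISPLD2 encodes a secreted protein that binds bacterial lipopolysaccharide. The window, the widest of the 10, held 1 region, chr16:84853508-84853644, called with dexamethasone alone with 15 tags (8.67-fold, rank 7351 of 8428). It lay inside the cut-back window toward the lower coordinates, the 5′ side of this plus-strand gene. TNFAIP3 encodes A20, a ubiquitin-editing enzyme that restrains NF-kB signalling. Its window was empty in all 4 libraries, and the nearest dexamethasone and estradiol regions were both 465.2 kb past its edge.

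**Figure D3:**
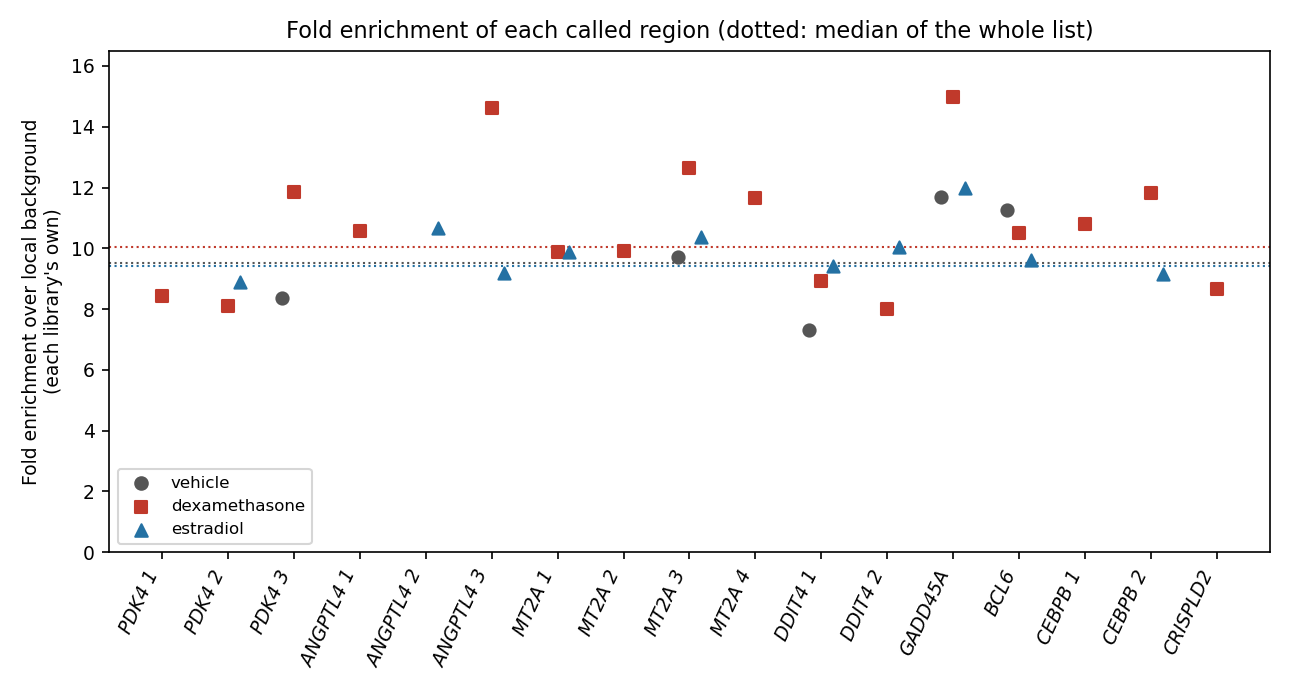
Fold enrichment over each library's own local background (vertical axis, linear from 0) for the 17 merged regions, numbered along each locus by coordinate, with vehicle as circles, dexamethasone as squares, estradiol as triangles and each list's median as a dotted line. GADD45A and the third ANGPTL4 region have the highest dexamethasone values, 14.99 and 14.63, and a missing symbol means that no region was called.

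Among themselves, the 16 dexamethasone regions ranged from 8.01-fold to 14.99-fold, with a median of 10.54 where the whole list had 10.04. Of these, 9 were above the list's median. The 10 estradiol regions ranged from 8.89-fold to 11.97-fold, with a median of 9.74 against 9.43 in the list, and the 5 vehicle regions from 7.32-fold to 11.7-fold, with a median of 9.72 against 9.53. The 5 dexamethasone regions that overlapped a vehicle region had a median of 24 tags, and the 11 that did not had 19; over the whole list these medians were 29 and 19. Where overlapping regions were called in a pair of libraries, the median distance between their summits was 10 bp over 5 dexamethasone and vehicle pairs (34 bp over 1820 nuclear pairs of the lists), 65 bp over 4 estradiol and vehicle pairs (33 bp over 1626) and 58 bp over 9 dexamethasone and estradiol pairs (28 bp over 4100). The widest distance was 117 bp, at the second DDIT4 region.

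Overlap with vehicle depended on how strong a region was in the dexamethasone list. The list was cut into 10 deciles by p-value, the strongest first. In the strongest decile, 78.9% of all dexamethasone regions were called in vehicle. That decile held the GADD45A, BCL6 and higher-side ANGPTL4 regions, of which the first 2 were called in vehicle and the ANGPTL4 region was not. In the eighth, ninth and last deciles, 5.2%, 4.29% and 2.97% were called in vehicle. These deciles held 5 window regions, both PDK4 regions inside the cut-back window, the lower-side MT2A region, the CRISPLD2 region and the second DDIT4 region, and 0 were called in vehicle. The sixth decile, in which 7.83% were called in vehicle, held the first DDIT4 region, which was. In every decile but the strongest, fewer than 50% of the list's regions were called in vehicle.

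**Figure D4:**
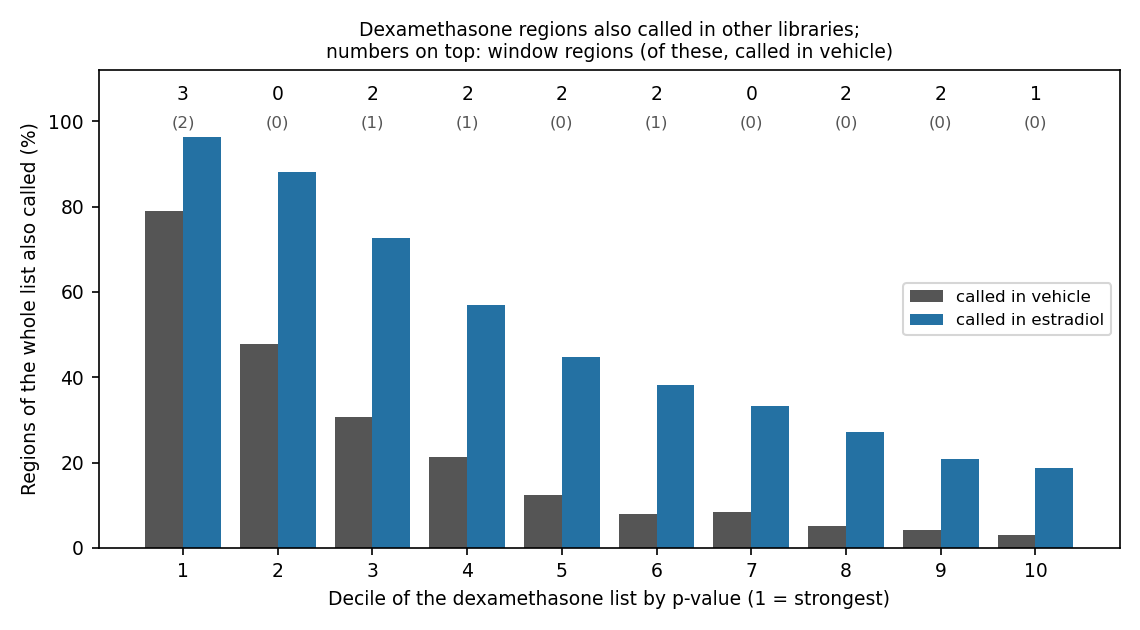
Share of the whole dexamethasone list that was also called in vehicle (dark bars) or in estradiol (blue bars), in percent, by decile of the list ordered by p-value. The numbers on top are the window regions in each decile, with those called in vehicle in parentheses, and the vehicle share runs from 78.9% in the strongest decile to 2.97% in the weakest.

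By position, 7 of the 17 merged regions, at 6 loci, lay inside the windows cut back by 50 kb. The other 10, at 5 loci, lay in the flanks. The window edges are given to the nearest 10 kb, so whether a region covers a start site was not measured. Per Mb of window there were 13.1 dexamethasone, 8.2 estradiol and 4.1 vehicle regions. Each whole list spread over the effective genome size of 2.7 Gb gives 3.12, 1.77 and 0.712. Windows around genes were not matched to the genome for gene density. In 9 other glucocorticoid-response windows (FKBP5, PER1, TSC22D3, KLF9, SGK1, DUSP1, NFKBIA, ERRFI1 and ZBTB16; 1.54 Mb), 5 regions were called with dexamethasone (3.25 per Mb), 3 with estradiol, 2 with vehicle and 0 with the combination. Of these 5 dexamethasone regions, 3 had no vehicle overlap (interval 14.7% to 94.7%, against 78.0% of the list), at FKBP5, PER1 and ERRFI1. TSC22D3, KLF9, SGK1 and NFKBIA had no region in any library.

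Set side by side by hormone, adding dexamethasone to vehicle went with 11 more regions in the windows, and adding it to estradiol went with 10 fewer. The 4 places called in vehicle, dexamethasone and estradiol, at MT2A, DDIT4, GADD45A and BCL6, were not called in the combination library. Over the series, 83 of the 1648 merged regions called in these 3 libraries were called in the combination (5.04%, 4.03 to 6.21). With 1 library for each treatment, the combined treatment and the low yield of this library cannot be told apart.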

How the data were processed

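Each of the 4 libraries had 1 deposited peak table. MACS 2.1.0.20140616 was run by the authors for every library separately, per the file headers, with no control, at a p cutoff of 1e-10, an effective genome size of 2.7 Gb, a 10000 bp background window and 1 tag per position. Bowtie 1.1.2 and hg19 are named, with no role, per the submitters' processing notes. Per the file headers, 50 bp tags were extended to a modelled fragment length, so heights count extended tags and not transposase cuts. The deposited pileup is a signal, the number of extended tags at the summit, unscaled. Fold enrichment was deposited as a ratio to the local background of the same library. Deposited p-values and q-values are on the −log10 scale and refer to that background. These values describe and rank regions within their own list.

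Groups came from the treatment labels. A region belonged to a window when its whole length lay inside. Overlap meant at least 1 bp. All 10 loci and every region in their windows are named. The comparison windows were written by hand in the same form and not checked against an hg19 annotation. The members, the lists and the comparison windows were chosen with earlier results of these data known. The overlap, window and merging code was tested on simulated data. Intervals are 95% exact Clopper-Pearson. RefSeq tables on GRCh38.p14 gave promoters, strands and neighbouring gene names, and none of their positions were set against the regions. Alternatives were stricter q or fold limits, lists of equal length, other window widths and other overlap rules. Software was scipy 1.17.1, pandas 2.3.3 and numpy 2.4.6 under Python 3.11.15.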

Additional observations from a re-analysis of the deposited data

Results flagged for a closer look

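In the lists as deposited, the difference in regions in the windows that went with each hormone had opposite signs with and without the other hormone. Dexamethasone minus vehicle was 11 regions, and the combination minus estradiol was -10. Estradiol minus vehicle was 5 regions, and the combination minus dexamethasone was -16. The differences between these values were not tested because no treatment had a second library. Both negative values rest on the combination library, which had 146 regions in all.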

How the results depend on the processing

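Of 66 values recomputed under an alternative, 47 stayed within 1.5 times the reported count and 19 did not. Some of the 47 could not have moved, so this number overstates how stable the counts are. They include the 10 values at a fold enrichment of at least 5 and the vehicle counts with lists cut to the vehicle length. The vehicle and estradiol counts were also fixed where only the dexamethasone list was shortened. An overlap of 50% of the shorter region and regions extended by 500 bp moved no count beyond that. A fold enrichment of at least 5 could remove no window region, since the lowest fold among them was 7.32. With a −log10 q of at least 10, vehicle kept 3 regions at 3 loci. With the strongest 1923 regions of each list, dexamethasone had 4 regions at 4 loci, with 1 of them lacking a vehicle overlap and 3 overlapping estradiol, and estradiol had 4 regions at 4 loci, with 0 lacking a vehicle overlap. Dexamethasone thus no longer had more regions than vehicle, which had 5. With windows cut back by 50 kb, 7 dexamethasone, 4 estradiol and 3 vehicle regions were left, with estradiol at 4 loci and vehicle at 3. Of these, 4 of the 7 dexamethasone regions had no vehicle overlap, against 78.0% of the whole list. The same held for 1 of the 4 estradiol regions, against 64.8% of that list. An estradiol region was overlapped by 4 of the 7 dexamethasone regions, against 49.7% of the list. With windows extended by 50 kb, 17 of 23 dexamethasone regions had no vehicle overlap, against 78.0% of the whole list. With the dexamethasone list at the length of the estradiol list, dexamethasone had 11 regions beside 10 for estradiol, and 6 of the 11 had no vehicle overlap. Shares over the shortened lists are not given, so the overlap counts at these lengths have no background value. The combination count stayed at 0 with windows extended by 50 kb, and no other alternative could have raised it. No paired analysis was possible because each treatment had 1 library. A place without a call may be accessible below the threshold of that library.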
